A study of Mus musculus with 10 samples.

Results

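Liver zonation markers are genes whose expression depends on where a hepatocyte lies between the portal tract, where blood enters the liver lobule, and the central vein, where it leaves. Of 10 genes chosen as markers, 9 could be followed here, with 15 probes in all that the array annotation assigns to a single gene. They were the pericentral genes Glul, Oat, Rhbg, Slc1a2, Axin2, Lgr5 and Tbx3 and the periportal genes Hal and Cdh1. The array annotation used here assigned no probe to the third periportal gene, Gls2, and it was not analysed here. The whole table held 36227 probes, of which 36088 were tested, and 18012 genes had a tested probe. All 15 marker probes passed the filter, which asked for at least 3 values in each group.

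The livers of 10 mice were each profiled on a CodeLink array read in 1 colour. In the treated group, 5 mice received a 2′-O-methoxyethyl phosphorothioate antisense oligonucleotide (ASO) against miR-122, a microRNA of hepatocytes, at 50 mg/kg. In the control group, 5 mice received saline. Both groups were injected into the peritoneum 2 times a week for 4 weeks, and tissue was collected 2 days after the final injection. The labels name male C57Bl/6 mice for the ASO group and give neither sex nor strain for the saline group, and they give no ages. Saline was the only control, so an effect of the oligonucleotide chemistry and an effect of blocking miR-122 cannot be told apart.

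Hepatocytes beside the central vein receive Wnt and R-spondin signals from endothelial cells of that vein, and beta-catenin then switches on a pericentral set of genes. In the last hepatocytes before the vein, glutamine synthetase traps ammonia that escaped the urea cycle upstream, with glutamate and ammonia brought in by dedicated transporters. Periportal hepatocytes instead carry the urea cycle, glutaminase, gluconeogenesis and the breakdown of several amino acids. Whole-liver RNA mixes all zones, so fewer cells of a zone and less RNA per cell cannot be told apart here.

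Both analysed periportal markers were lower on average after the ASO, each by about 1 on the log2 scale, and the pericentral markers showed no common direction. The brightest probe of Hal had a log2 fold change (ASO minus saline) of -1.08 ± 0.36 (SE) and that of Cdh1 of -0.999 ± 0.27. Of the 7 pericentral genes, 3 were higher and 4 lower on average, between -0.41 for Oat and 0.48 for Glul. No marker probe passed the threshold of an adjusted p of 0.05 (limma, Benjamini-Hochberg over all 36088 probes), where 0.0637% of all probes did. At an unadjusted p under 0.05 in the same limma fit stood 5 of the 15 marker probes, 3 lower and 2 higher, against 11.2% of all probes (6.66% lower and 4.58% higher). In none of the 15 did the groups separate without overlap, against 2.37% of all probes.

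**Figure D1:**
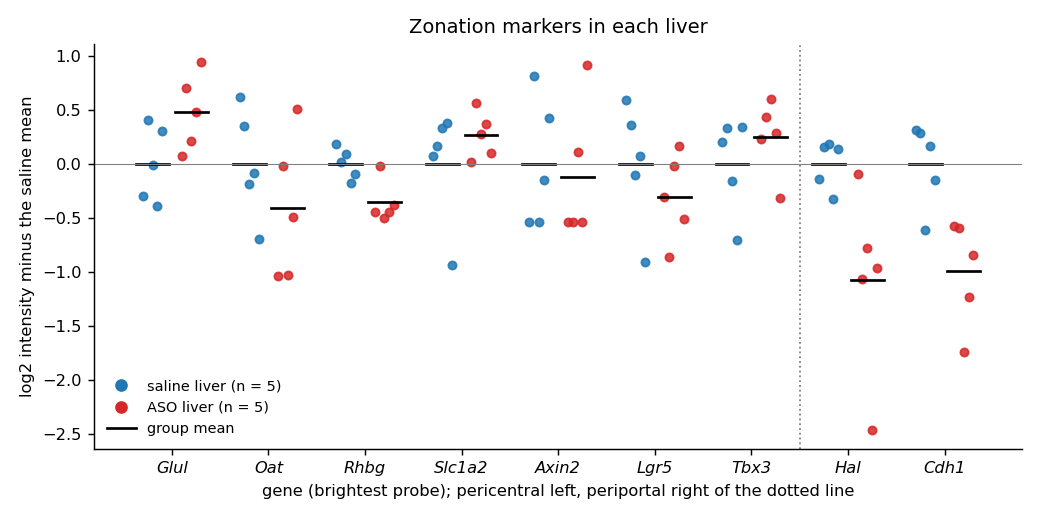
Log2 intensity of each liver minus the mean of the saline livers (vertical axis) for the brightest probe of the 9 genes, with 5 saline livers (blue) and 5 ASO livers (red) per gene and black lines at the group means. All 5 ASO livers lie below the saline mean for Rhbg, Hal and Cdh1 and above it for Glul and Slc1a2, and the groups overlap for every gene.

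Promoter sequences from RefSeq (build GRCm38.p6) were at hand for 5 of the 10 genes, Glul, Oat, Slc1a2, Axin2 and Hal. Each window runs from 250 bases before to 50 bases after the start of the gene. The promoters of Glul, the standard pericentral marker, and of Hal, the periportal enzyme with the larger difference, are shown to set both zones side by side. Glul lies on the plus strand at chr1:153899679-153899978 and Hal on the plus strand at chr10:93488518-93488817. Capitals mark matches to 3 motifs, searched on both strands, none of which overlapped. The first is CTTTGAT, the core bound by the TCF/LEF partners of beta-catenin. The second is the TATA box, TATAAA, which reads TTTATA on the other strand. The third is CCAAT, a common promoter element.
Glul promoter: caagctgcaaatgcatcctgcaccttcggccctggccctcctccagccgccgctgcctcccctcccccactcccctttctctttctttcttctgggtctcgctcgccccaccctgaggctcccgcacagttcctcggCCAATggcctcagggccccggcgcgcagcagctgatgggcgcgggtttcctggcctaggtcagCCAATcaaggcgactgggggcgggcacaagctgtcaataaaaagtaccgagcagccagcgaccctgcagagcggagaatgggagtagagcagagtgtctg
Hal promoter: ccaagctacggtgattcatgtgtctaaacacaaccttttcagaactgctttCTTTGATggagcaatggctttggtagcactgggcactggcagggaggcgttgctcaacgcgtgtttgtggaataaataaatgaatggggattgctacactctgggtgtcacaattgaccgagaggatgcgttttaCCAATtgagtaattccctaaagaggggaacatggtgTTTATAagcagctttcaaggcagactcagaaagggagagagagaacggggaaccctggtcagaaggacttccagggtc

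The Glul window held CCAAT at 113 and at 50 positions before the start and neither of the other motifs. The Hal window held CTTTGAT 199 positions, CCAAT 64 positions and TATAAA 28 positions before the start. Among 32851 promoter windows of the same length, CTTTGAT was present in 3.73%, TATAAA in 13.6% and CCAAT in 37.4%. Of the other pericentral windows, that of Slc1a2 also held CTTTGAT, 207 positions before the start, and those of Oat and Axin2 did not. The longer motif CAAAGTCCA, bound by the hepatocyte factor HNF4A, was in none of the 5 windows and in 0.475% of all windows. These matches describe letters in a short window and say nothing of binding in these livers.

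Hal encodes histidine ammonia-lyase, which opens the breakdown of histidine by releasing its ammonia. Its probe (90090) read 52.3, 64.1, 65.1, 45.9 and 63.2 in saline replicates 1 to 5, in linear intensity units as deposited. In ASO replicates 1 to 5 it read 53.7, 27.4, 33.5, 10.4 and 29.4. ASO replicates 2 to 5 lay below every saline liver, ASO replicate 1 lay within the saline range, and ASO replicate 4 was the lowest. On the log2 scale Hal stood at 5.85 ± 0.22 (SD, n = 5) in saline livers and at 4.77 ± 0.87 (n = 5) in ASO livers. The fold change of -1.08 ± 0.36 (SE, 95% interval -1.86 to -0.30) had an unadjusted p of 0.0109 and an adjusted p of 0.297 in limma. It was -0.73 without ASO replicate 4 and -1.32 without ASO replicate 1.

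Cdh1 encodes E-cadherin, the adhesion protein of epithelial junctions, which in liver is found on periportal hepatocytes and on bile duct cells. Its probe (224099) read 13.4, 13.2, 7.03, 12.1 and 9.73 in saline replicates 1 to 5 and 7.25, 7.14, 3.23, 4.58 and 5.99 in ASO replicates 1 to 5. A single saline liver, replicate 3, overlapped the ASO group, and the other 4 saline livers lay above every ASO liver. The log2 means were 3.43 ± 0.39 and 2.43 ± 0.49 (SD, n = 5 per group). The log2 fold change of -0.999 ± 0.27 (SE, 95% interval -1.58 to -0.41) had the smallest p of all marker probes, 0.00300 unadjusted and 0.231 adjusted (limma). Among probes above the median level, 10.4% were lower at an unadjusted p under 0.05.

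Because bile duct cells also express Cdh1, their markers are given beside it. Of 10 duct markers, 7 were measured, and their summed intensity ran from 7.99 to 10.8 in saline livers and from 7.64 to 10.004 in ASO livers. No measured duct marker lay under the floor on every array. Of the 7, 3 were higher and 4 lower on average, with a median log2 fold change of -0.015. At an unadjusted p under 0.05 in limma stood 1 of the 7, which was lower, against 6.66% of all probes lower. It was the duct keratin Krt19, named after its values were seen (log2 fold change -0.62 ± 0.24, adjusted p = 0.377 in limma, -0.40 without ASO replicate 3 and -0.33 on the log2(value + 1) scale). The part of duct cells in the Cdh1 difference was not tested.

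**Figure D2:**
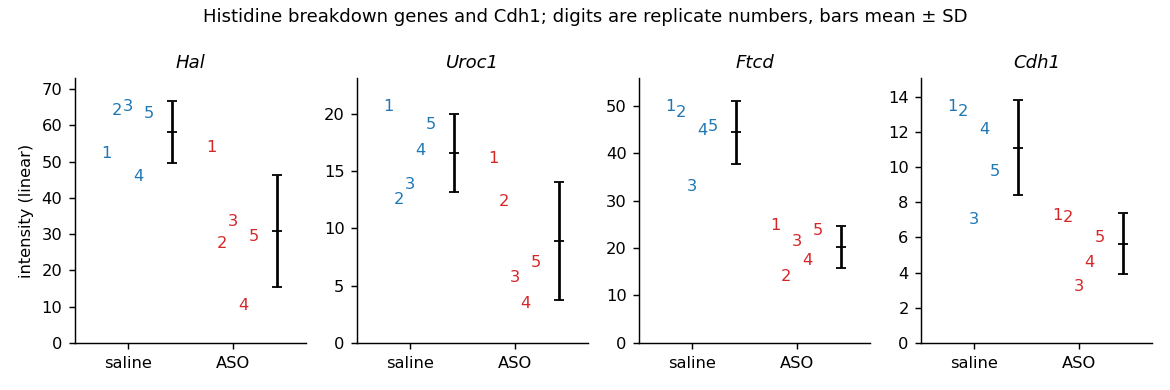
Linear intensity (vertical axis, from 0) of Hal, the histidine breakdown genes Uroc1 and Ftcd, and Cdh1 in 5 saline and 5 ASO livers. Digits are replicate numbers and bars give the mean ± SD of each group. ASO replicate 4 is lowest for Hal and Uroc1, and the groups are apart for Ftcd.

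The other genes of histidine breakdown were followed because Hal starts that pathway. Of 4 listed, 3 were measured, 2 of them lower and 1 higher, with a median log2 fold change of -1.08, against -0.11 for genes above the median level taken 1 probe each. None passed the adjusted threshold in limma, where 0.0637% of all probes did. The 2 lower genes had an unadjusted p under 0.05 in limma. Among all probes above the median level, where these 3 genes lie, 10.4% were lower at that p. Ftcd, which moves the formimino group of the pathway onto folate, read 49.8, 48.6, 33.03, 44.7 and 45.7 in saline replicates 1 to 5. In ASO replicates 1 to 5 it read 24.7, 14.0, 21.4, 17.4 and 23.6. Every ASO liver lay below every saline liver, where 1.43% of all probes were apart in that direction. That share was not taken over probes above the median level, where Ftcd lies. The log2 fold change of Ftcd was -1.15 ± 0.20 (SE). Its adjusted p was 0.0853 in limma, 0.0415 with only probes above the median level and 0.0444 on the log2(value + 1) scale. Over its 17 alternatives that adjusted p ran from 0.0415 to 0.266.

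Uroc1, the urocanase that follows Hal, stood at -1.08 ± 0.37 on the log2 fold change scale, with an adjusted p of 0.320 in limma. It read 20.6, 12.6, 13.8, 16.8 and 19.1 in saline livers and 16.1, 12.4, 5.69, 3.44 and 7.03 in ASO livers. As for Hal, ASO replicate 1 was the highest of its group and ASO replicate 4 the lowest. Hdc, which turns histidine into histamine and so leads off another route, was at 0.20 ± 0.26.

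Glul encodes glutamine synthetase, which makes glutamine from glutamate and ammonia in the hepatocytes that ring the central vein. Its brighter probe (90075) read 434, 705, 527, 406 and 657 in saline replicates 1 to 5 and 558, 868, 616, 740 and 1020 in ASO replicates 1 to 5. Every ASO liver lay above the saline mean and 3 of them, replicates 2, 4 and 5, lay above every saline liver. The log2 means were 9.06 ± 0.35 and 9.54 ± 0.35 (SD, n = 5 per group). They differed by 0.48 ± 0.23 (SE, 95% interval -0.02 to 0.97), with an adjusted p of 0.460 in limma. The array of saline replicate 1 reached no value above 542, while the maximum of the others was 1198 to 2333. Glul at 434 stood there close to albumin (Alb, 473), and on saline replicate 2 Glul stood at 705 against 801 for Alb. The Glul difference was 0.40 without saline replicate 1 and 0.58 without saline replicate 2, and they were not left out together. An effect of such an upper limit on the Glul difference was not tested. A second Glul probe (288081) had intensities of 0.136 to 0.945 and a log2 fold change of -0.41 ± 0.36, which was -0.07 without ASO replicate 2, -0.64 without ASO replicate 5 and -0.13 on the log2(value + 1) scale.

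Oat, ornithine aminotransferase, feeds ornithine carbon into glutamate in the same cells. Its probe (237091) read 187, 155, 107, 115 and 74.7 in saline livers and 59.1, 120, 59.5, 86.3 and 173 in ASO livers. ASO replicates 1 and 3 lay below every saline liver and ASO replicate 5 near the top of the saline range. The log2 fold change was -0.41 ± 0.34 (SE, 95% interval -1.15 to 0.32, adjusted p = 0.670 in limma), -0.65 without ASO replicate 5 and -0.26 without ASO replicate 1.

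Rhbg is an ammonia channel of the Rh glycoprotein family. Its probe (128052) read 17.1, 15.3, 16.1, 13.4 and 14.2 in saline livers and 11.1, 14.9, 10.7, 11.1 and 11.6 in ASO livers. ASO replicates 1, 3, 4 and 5 lay below every saline liver, and ASO replicate 2 lay within the saline range. The log2 fold change was -0.36 ± 0.16 (SE, 95% interval -0.70 to -0.02), with an unadjusted p of 0.0416 and an adjusted p of 0.427 in limma. It was -0.23 under cyclic loess normalization. The unadjusted p in limma was above 0.05 in most alternatives. It ran from 0.00897 on the log2(value + 1) scale to 0.227 under cyclic loess normalization.

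Slc1a2 encodes a high-affinity glutamate transporter that supplies glutamine synthetase with its substrate. Its brightest probe (95010) read 23.4, 24.98, 28.0, 28.9 and 11.7 in saline livers and 22.5, 33.02, 27.0, 28.7 and 23.9 in ASO livers. Saline replicate 5 was the lowest of the 10 livers. The log2 fold change was 0.26 ± 0.25 (SE, 95% interval -0.29 to 0.81), 0.03 without that liver and 0.41 under quantile normalization. Its other probes, 52107 and 280108, were under the floor of 0.192 on 4 and 6 of the 10 arrays and had log2 fold changes of 0.18 ± 0.25 and 0.38 ± 0.26.

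The enzymes and transporters above thus split: Glul and Slc1a2 were higher and Oat and Rhbg lower on average in the ASO livers, with no adjusted p under 0.427.

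Axin2, Lgr5 and Tbx3 report Wnt and beta-catenin activity more directly. Axin2, a scaffold of the complex that destroys beta-catenin and itself a target of it, was under the floor of 0.192 on 5 of 10 arrays, so its level is poorly measured here. Its probe (93054) read 0.130, 0.490, 0.105, 0.253 and 0.374 in saline livers and 0.190, 0.143, 0.302, 0.180 and 0.527 in ASO livers. The groups covered nearly the same range, and the log2 fold change was -0.12 ± 0.35 (SE, 95% interval -0.89 to 0.65), turning to 0.08 without saline replicate 2 and to 0.06 with no floor.

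Lgr5, the R-spondin receptor that strengthens Wnt signals, had probes that pointed opposite ways. The brighter probe (355044) read 6.12, 5.24, 3.80, 4.28 and 2.16 in saline livers and 3.29, 2.23, 4.02, 4.58 and 2.86 in ASO livers. Every ASO liver lay within the saline range, and the log2 fold change was -0.31 ± 0.29 (SE, 95% interval -0.95 to 0.33), -0.18 under quantile normalization, -0.16 when saline replicate 1 was left out and -0.54 when saline replicate 5 was. The dimmer probe (36011) read 0.723, 0.913, 0.797, 0.269 and 0.426 in saline livers and 1.13, 1.68, 1.25, 0.832 and 0.974 in ASO livers. Of these ASO livers 4 lay above every saline liver, and the log2 fold change was 0.998 ± 0.33 (SE, unadjusted p = 0.0117, adjusted p = 0.301 in limma) and 0.42 on the log2(value + 1) scale. Its average level lay below the median of all probes.

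Tbx3, a T-box transcription factor and beta-catenin target, had 3 probes, all higher on average in the ASO livers. The brightest (393065) read 17.3, 19.0, 13.5, 9.22 and 19.0 in saline livers and 17.6, 20.3, 22.9, 18.3 and 12.1 in ASO livers, a log2 fold change of 0.24 ± 0.25 (SE, 95% interval -0.29 to 0.78) that was 0.07 when saline replicate 4 was left out and 0.39 when ASO replicate 5 was. Probe 18057 gave 0.40 ± 0.28, with 0.22 and 0.61 when the same livers were left out. In both, saline replicate 4 and ASO replicate 5 were the lowest of their groups.

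The third Tbx3 probe (140048) behaved differently. It read 2.42, 2.25, 3.52, 2.63 and 3.94 in saline livers and 12.4, 4.20, 11.9, 13.8 and 2.81 in ASO livers. ASO replicates 1, 3 and 4 stood far above every saline liver, ASO replicate 2 just above them and ASO replicate 5 within their range. The log2 means were 1.53 ± 0.35 and 2.91 ± 1.05 (SD, n = 5 per group), and the log2 fold change of 1.38 ± 0.43 (SE, 95% interval 0.44 to 2.33) was the largest of the marker probes. Its unadjusted p was 0.00786 and its adjusted p 0.279 in limma. The other Tbx3 probes did not show the 3 livers apart, and which part of the transcript each probe reads was not analysed here.

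**Figure D3:**
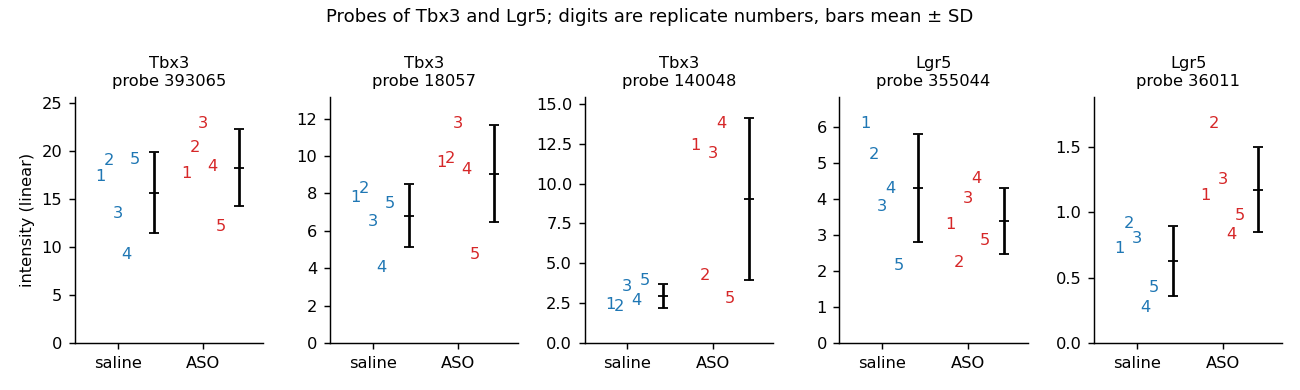
Linear intensity (vertical axes, each from 0) at 3 probes of Tbx3 and 2 probes of Lgr5 in saline and ASO livers, with replicate numbers as points and bars for the mean ± SD. ASO replicates 1, 3 and 4 stand apart at Tbx3 probe 140048 alone, and the Lgr5 probes differ in direction.

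**Figure D4:**
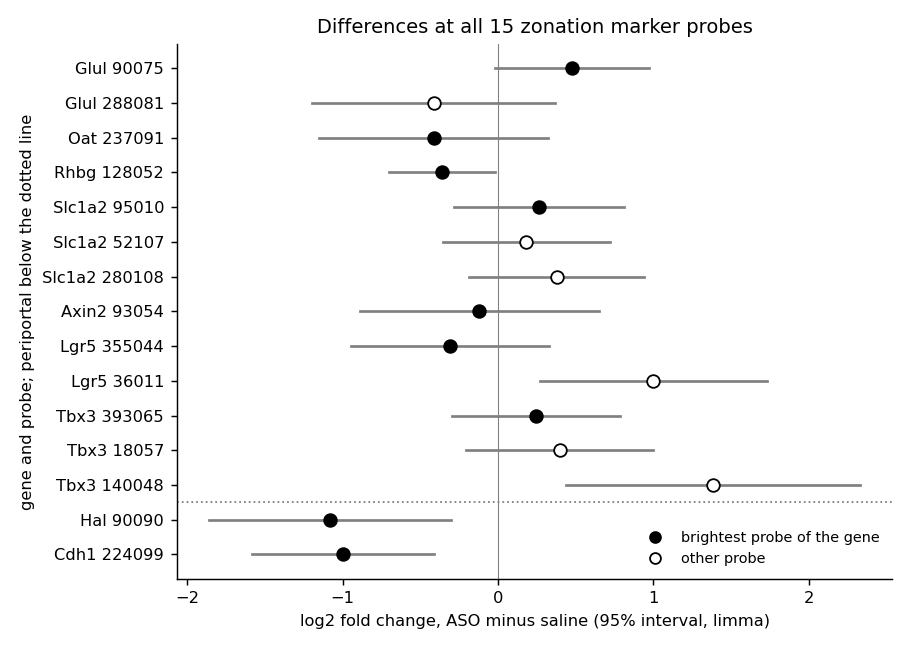
Log2 fold change (ASO minus saline, horizontal axis) with its 95% interval from limma for all 15 marker probes, filled for the brightest probe of each gene and open for the others. The intervals of Rhbg, Lgr5 probe 36011, Tbx3 probe 140048, Hal and Cdh1 leave out 0, before adjustment over all probes.

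Taken by zone with 1 probe per gene, the median log2 fold change was -0.12 over the 7 pericentral genes (the value of Axin2, which was under the floor on 5 of 10 arrays) and -1.04 over the 2 periportal genes, against -0.04 over all 18012 genes and -0.11 over genes above the median level. The periportal median rests on Hal and Cdh1 only, and it was -0.90 under quantile and -0.92 under cyclic loess normalization. The pericentral median changed sign with the processing, to 0.08 without saline replicate 2 and 0.06 with no floor, which are again the values of Axin2, and to 0.03 with all probes of a gene averaged, and was -0.31 with array weights. The pericentral median lay above the periportal median by 0.92, and by 0.72 to 1.10 over the alternatives other than leaving out a liver.

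Other genes of the same zones were listed to set the markers in context. Of 25 further pericentral hepatocyte genes, 20 were measured, 10 higher and 10 lower, with a median of 0.03. The median was -0.10 without ASO replicate 5. None of the 20 passed the adjusted threshold in limma, where 0.0637% of all probes did. At an unadjusted p under 0.05 in limma stood 1 higher and 1 lower, against 4.58% and 6.66% of all probes. Cyp2e1, a pericentral cytochrome P450 that oxidises ethanol, read 464 to 1254 in saline and 950 to 1535 in ASO livers, close to Alb (473 to 1287 and 1154 to 1627) at the top of each array, so no fold is given for it. Cyp1a2, which metabolises caffeine, was at 0.10 ± 0.26 and turned to -0.09 without ASO replicate 5. Cyp7a1, the rate-limiting enzyme of bile acid synthesis, was at 0.38 ± 0.31, with 0.19 without saline replicate 5 and 0.22 with array weights.

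Of 22 further periportal genes, 19 were measured, 7 higher and 12 lower, with a median of -0.24, and -0.16 under cyclic loess normalization. Of all 10945 genes above the median level, 1 probe each, 4098 were higher and 6847 lower, with a median of -0.11. Over all probes above the median level, the median was -0.08, and 0.02 under quantile and 0.001 under cyclic loess normalization. None of the 19 passed the adjusted threshold in limma, where 0.0637% of all probes did. At an unadjusted p under 0.05 stood 5 lower and 1 higher. Among all probes above the median level, where these 19 genes lie, 10.4% were lower at that p. Pck1, a gluconeogenic enzyme, was at 0.13 ± 0.24, turning to -0.02 without saline replicate 1. Cyp2f2, a periportal cytochrome P450, read 484 to 1204 in saline and 788 to 1382 in ASO livers. It lay near the top of the arrays like Cyp2e1 and is given no fold, but is counted among the 7 higher genes and in the median. Other genes of this list, such as Serpina1c (490), also read near the top on saline replicate 1 and are counted. In 2 genes, chosen after their values were seen, the ASO livers all lay below the saline livers, where 1.43% of all probes were apart in that direction. That share was not taken over probes above the median level. Lower probes were commoner there, with the 10.4% above against 6.66% of all probes at an unadjusted p under 0.05 in limma. Got1, cytosolic aspartate aminotransferase, was at -1.59 ± 0.37 (adjusted p = 0.180 in limma). Pigr, the receptor that carries immunoglobulin A across epithelia, was at -0.73 ± 0.22 (adjusted p = 0.273), with 4 ASO values since ASO replicate 1 had none.

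Ammonia and glutamine metabolism, which the zones share between them, had 15 of 22 listed genes measured, 5 higher and 10 lower, with a median of -0.20 that was -0.03 under quantile and -0.09 under cyclic loess normalization. Of the 15, 2 were higher and 2 lower at an unadjusted p under 0.05 in limma, against 4.58% and 6.66% of all probes. The neutral amino acid transporter Slc1a4 alone passed the adjusted threshold in limma, where 0.0637% of all probes did. That gene was known to do so when the list was made. It rose from 4.40, 4.82, 4.42, 4.63 and 4.60 in saline livers to 8.28, 13.7, 14.7, 15.1 and 9.29 in ASO livers, by 1.37 ± 0.20 on the log2 scale. Its adjusted p was 0.0448 in limma and above 0.05 in 10 of 17 alternatives (0.0134 to 0.152 over all of them).

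In the urea cycle, the entry activator gene Nags, chosen after its values were seen, had every ASO liver below every saline liver. Over all probes, 1.43% were apart in that direction. That share was not taken over probes above the median level, where Nags lies. The log2 fold change of Nags was -0.44 ± 0.17 (adjusted p = 0.359 in limma). Asl, argininosuccinate lyase, also chosen after its values were seen, was at -0.70 ± 0.22 (adjusted p = 0.279 in limma), with ASO replicate 2 within the saline range. Its other probe was at -1.51 ± 0.30 (adjusted p = 0.132). Otc, which joins ornithine to carbamoyl phosphate, was at -0.31 ± 0.25, -0.52 without saline replicate 5 and -0.19 without saline replicate 4. Arg1, arginase, was at -0.32 ± 0.16. Glud1, glutamate dehydrogenase, was at 0.21 ± 0.19 and 0.08 without saline replicate 5. Slc38a3, a glutamine transporter, was at -0.20 ± 0.31, with a range of -0.44 to -0.03 over the alternatives. Cps1, Ass1, Sds and Amdhd1 were not analysed here.

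None of the Wnt pathway genes measured passed the adjusted threshold in limma, where 0.0637% of all probes did. Among 16 measured targets and feedback genes the median was 0.06, with 10 higher and 6 lower (median -0.03 without saline replicate 4). Of these 16, 1 was higher at an unadjusted p under 0.05 in limma, against 4.58% of all probes. Rnf43, a ligase that removes Wnt receptors, was at 0.79 ± 0.37 and 0.50 without ASO replicate 2, where it read 50.7 against 6.85 to 17.5 in saline livers. Its relative Znrf3 was at 0.02 ± 0.26, Nkd1 at -0.46 ± 0.32 (-0.17 without ASO replicate 3) and the transcription factor Sp5 at 0.25 ± 0.18 (0.15 without saline replicate 4). The sign for Znrf3 turned in 6 of 17 alternatives.

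Of 25 core pathway genes measured, 10 were higher and 15 lower, with a median of -0.09, and -0.01 under both quantile and cyclic loess normalization. Ctnnb1, which encodes beta-catenin, was the 1 core gene of the 25 with an unadjusted p under 0.05 in limma, against 11.2% of all probes. Its probe read 7.16, 7.12, 7.55, 7.79 and 3.88 in saline livers and 7.36, 1.82, 1.62, 2.64 and 4.13 in ASO livers. Saline replicate 5 was low and ASO replicate 1 high for their groups, and the log2 fold change was -1.12 ± 0.39 (SE, adjusted p = 0.322 in limma). Tcf7l2, a DNA-binding partner of beta-catenin that was under the floor on 5 of 10 arrays, was at -0.20 ± 0.24, with -0.08 without saline replicate 4 and -0.55 with no floor. The receptor Lgr4, under the floor on 6 of 10 arrays, was at -0.15 ± 0.21, turning to 0.025 with no floor.

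A list of Wnt and R-spondin genes (Wnt2, Wnt4, Wnt5a, Wnt9b, Wnt11, Rspo1 and Rspo3) had 2 of 7 higher and 5 lower. The cells that express each were not analysed here. None of the 7 genes had an unadjusted p under 0.05 in limma, against 11.2% of all probes. Their median was -0.06, 0.07 under quantile and 0.05 under cyclic loess normalization, and -0.24 without ASO replicate 1. Rspo3, which encodes an R-spondin, was at -0.02 ± 0.17 and changed sign in 6 of 17 alternatives. Wnt2 was at -0.29 ± 0.18, with -0.18 without ASO replicate 4, and Wnt9b at -0.35 ± 0.37, with -0.03 without ASO replicate 2 and -1.43 with no floor. The summed intensity of 9 measured endothelial markers ran from 65.0 to 123 in saline livers and from 49.7 to 161 in ASO livers. It was widest in the ASO group. Of these 9 markers, 1 was higher at an unadjusted p under 0.05 in limma, against 4.58% of all probes.

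Partners of Cdh1 in the adherens junction did not share its direction as a list, with 4 of 8 higher and 4 lower. None of the 8 stood at an unadjusted p under 0.05 in limma, against 11.2% of all probes. N-cadherin (Cdh2) was at 0.09 ± 0.15, with 0.22 under cyclic loess normalization and 0.03 without ASO replicate 2. Alpha-catenin (Ctnna1) was at -0.25 ± 0.15, with -0.11 under quantile normalization. The p120 catenin gene Ctnnd1 was at -0.50 ± 0.35, with -0.17 without ASO replicate 3. Relatives of Tbx3 (5 measured, 3 higher and 2 lower) and of the Rh and glutamate transporters (7 measured, 4 higher and 3 lower) had medians of 0.02 and 0.05, and Tbx2 was at -0.09 ± 0.17.

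**Figure D5:**
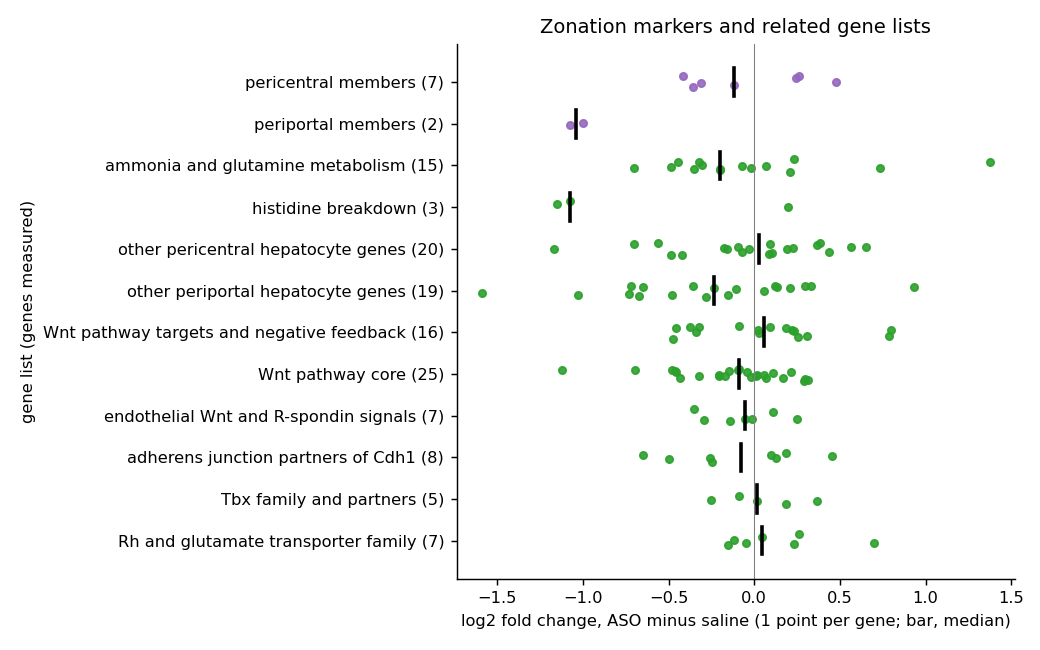
Log2 fold change (ASO minus saline, horizontal axis) of each measured gene, 1 point per gene, in the pericentral and periportal markers (purple) and in 10 related lists (green), with a black bar at each median. The medians of the periportal markers and of histidine breakdown lie near -1, on 2 and 3 genes, and those of the other lists between -0.24 and 0.06.

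By a likeness rule, the 3 genes whose level followed Glul most closely over the 10 livers, with each group mean taken out, were Gm20045 (r = 0.889, Spearman rho 0.867), Ifi27 (r = 0.849, rho 0.867) and Triqk (r = 0.807, rho 0.794), picked from 10806 genes above the median level. Without the 2 livers farthest from the median of Glul, r was 0.812, 0.800 and 0.610. These values describe the picks and carry no test, since the highest of so many correlations over 10 livers is high by selection, and all genes share the same arrays.

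As a check of the tissue label, 8 of 10 hepatocyte markers were measured and all 8 lay above the median level. Their summed intensity was 3514 on saline replicate 1, 5674 to 7992 on the other saline arrays and 7336 to 9083 on the ASO arrays. On saline replicate 1 the abundant transcripts Alb, Ttr, Apoa1, Apoa2 and Trf all read 465 to 482, where no probe exceeded 542. On saline replicate 2 they read 781 to 853, so the sum is no measure of hepatocyte content. Over all probes, r was 0.949 to 0.982 for pairs of arrays of 1 group and 0.942 to 0.973 for pairs across the groups. Summed intensities of Kupffer cell markers (8 measured) ran from 120 to 299 in saline and from 49.7 to 273 in ASO livers. Those of stellate markers (10 measured) ran from 321 to 360 and from 277 to 372. Those of lymphocyte markers (7 measured) ran from 9.34 to 12.9 and from 6.62 to 9.44. No hepatocyte, Kupffer or stellate marker had an unadjusted p under 0.05 in limma, against 11.2% of all probes. Of the lymphocyte markers 2 did, both lower, against 6.66% of all probes lower. In the last list the B cell gene Ms4a1, chosen after its values were seen, had every ASO liver below every saline liver (-0.57 ± 0.16, adjusted p = 0.246 in limma, and -0.25 on the log2(value + 1) scale). Over all probes, 1.43% were apart in that direction. The part of these cells in the marker differences was not tested.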

How the data were processed

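The deposited table holds the authors' array intensities on a linear scale, with array medians of 1.03 to 1.05 and some values at or below 0. How background and scale were set is not given in the sources used here. Detection flags were not used. Values under the 10th percentile of positive values (0.192) were set to it before taking log2, so differences of probes near that floor depend on it. Each of 36088 probes was fitted with limma 3.58.1 (lmFit, eBayes, two-sided) in R 4.3.3 over all 10 arrays without covariates, with no batch given, and p-values were adjusted by Benjamini-Hochberg. The procedure was tested on simulated data. A gene is represented by its brightest probe, and all probes of the markers are given; of the related genes named with a difference, Asl had another probe, given beside it. Symbols came from the platform annotation, 21487 of 21615 single-gene probes matching by Entrez ID.

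The markers, related lists and named genes were chosen with earlier results of these data known. The named-gene rule took all markers, a preset choice from each list and any list member past the threshold. Hdc, Krt19, Nags, Asl, Got1, Pigr, Ms4a1, Aldh1a1, Serpina1c and the hepatocyte markers fall outside that rule and were named after their values were seen. Livers are separate mice per the labels, and replicate numbers follow accession order and pair nothing. Alternatives were quantile and cyclic loess normalization, no floor, log2(value + 1), array weights, eBayes with trend and robust, a filter to probes above the median level, averaging of probes and leaving out each array. The number of arrays limits the precision.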

Additional observations from a re-analysis of the deposited data

Results flagged for a closer look

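In 4 of the 30 groups of 5 livers tested over the 15 marker probes, the highest or lowest liver stood apart from the rest of its group on the log2 scale, where chance alone gives about 1 in 20 groups. The measure is the gap to the nearest liver divided by the range of the group, with a limit of 0.71. For Rhbg it was 0.765, from ASO replicate 2 (3.90 against 3.53 for the next). For Slc1a2 probe 95010 it was 0.769, from saline replicate 5 (3.54 against 4.55). For Slc1a2 probe 280108 it was 1, from saline replicate 4 (-1.62), since the other 4 saline livers were all at the floor (-2.38). That ratio was fixed by the floor. For Tbx3 probe 18057 it was 0.737, from ASO replicate 5 (2.25 against 3.21). On the linear intensities as deposited, the same ratios were 0.794, 0.683, 0.464 and 0.643 in that order, so Rhbg alone of the 4 passed the limit on both scales.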

How the results depend on the processing

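No marker probe passed an adjusted p of 0.05 in limma under any of the alternatives run, where the smallest was 0.119 (Cdh1, only probes above the median level). Of 250 values of marker probes under alternatives, 248 kept their direction and 2, both of Axin2, turned (0.061 with no floor, and -0.38 to 0.083 over the livers left out). The count of 5 marker probes at an unadjusted p under 0.05 was 3 with only probes above the median level, where 10 of the 15 were tested. Leaving out each liver in turn gave pericentral medians of -0.26 to 0.083 and periportal medians of -1.21 to -0.83.

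Among related genes, signs turned for Cyp1a2 (-0.089 to 0.30 over the livers left out), Pck1 (-0.020 to 0.31), Znrf3 (-0.13 to 0.14, and -0.0015 with array weights), Lgr4 (-0.22 to 0.0029, and 0.025 with no floor) and Rspo3 (-0.088 to 0.082, 0.094 under quantile normalization, 0.066 under cyclic loess and 0.011 with array weights). The cause was not tested. No paired analysis was made, since the groups are separate mice with nothing to pair. Over all probes, 23 were called, 0 to 16 with a liver left out.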
